A study of Mus musculus with 19 samples.

Results

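Malat1, Neat1, Meg3 and 6 snoRNA host genes (Gas5, Snhg1, Snhg5, Snhg6, Snhg8 and Snhg12) are long non-coding RNAs, and their rows were taken by symbol from a table of 20408 genes in the mouse suprarenal aorta. They make up 9 of those 20408 genes, each symbol matched 1 row, and all 9 were among the 14845 genes kept for testing, which needed 10 normalized counts or more in 4 or more mice. The 9 lncRNAs were chosen on their normalized counts across the 4 groups of these same samples, so their levels and differences are given as a description. Test outcomes for the 9 are printed as part of that description and are not independent evidence. 

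Bulk RNA-Seq was made from the suprarenal aorta of 19 male mice, 24 h after an osmotic pump was placed under the skin. The mice were labelled as 8 weeks old, an age that the study's methods give for the start of tamoxifen injections, before the pump was placed. They lacked ApoE and were on a C57BL/6J background. Both genotypes carried SMA-CreERT2, a tamoxifen-activated Cre recombinase driven by the Acta2 promoter of smooth muscle, and received tamoxifen. IKKβ-/- mice also carried loxP-flanked Ikkb alleles, so the deletion of this kinase of the NF-κB pathway was aimed at smooth muscle cells, while other cells of the aorta were meant to keep the gene. IKKβ+/+ mice were littermates with SMA-CreERT2 and without the flanked alleles. Pumps held saline (5 IKKβ+/+ and 4 IKKβ-/- mice) or angiotensin II (Ang II, 5 mice of each genotype), the peptide that raises blood pressure, at a labelled rate of 500 to 1000 ng/min/kg, of which the study's methods name only the upper rate for these samples. Each sample was labelled with its own mouse number, so every value below is 1 mouse.

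Malat1 and Neat1 are neighbouring nuclear transcripts: Malat1 gathers in nuclear speckles, where splicing factors are stored, and Neat1 is the scaffold of paraspeckles, bodies that hold back certain proteins and RNAs in the nucleus. Meg3 is a maternally expressed nuclear lncRNA of the imprinted Dlk1-Dio3 locus. The 6 host genes carry small nucleolar RNAs (snoRNAs), guides for the chemical modification of ribosomal RNA, inside their introns. Their spliced transcripts are short-lived because translation of small reading frames sends them to nonsense-mediated decay, and they build up when translation slows or growth stops. Gas5 takes its name from this behaviour, as growth arrest-specific 5, and many of its relatives begin with the run of pyrimidines that places ribosomal protein mRNAs under growth control.

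On GRCm38, Malat1 lay at chr19:5795690-5802672 and Neat1 at chr19:5824708-5845478, both on the minus strand, and Meg3 at chr12:109541001-109571726 on the plus strand. Gas5 lay at chr1:161034422-161038539, Snhg1 at chr19:8723475-8726443 and Snhg12 at chr4:132308623-132311024, all on the plus strand. Snhg5 (chr9:88495268-88523562), Snhg6 (chr1:9941959-9944118) and Snhg8 (chr3:123507552-123508404) were on the minus strand. The Gencode M21 annotation placed 10 snoRNA genes on the same strand within Gas5, 8 within Snhg1, 5 within Snhg12, 2 within Snhg5, and 1 each within Snhg6 (Snord87) and Snhg8 (Snora24), and none within Malat1, Neat1 or Meg3. The snoRNAs themselves carry no poly(A) tail, and the libraries were poly(A)-selected. Snord87 was the only 1 of them matched to a row of the table, at 0 to 9.01 normalized counts, below the level needed for testing, and the values below are those of the host genes.

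The bases around the transcription start show what the host genes share outside the counts. Start regions were taken from RefSeq on GRCm38.p6 for the 7 lncRNAs with an entry, which left out Neat1 and Snhg6, and each is printed from 40 bases before the start to 40 bases from it onward, 5′ to 3′ on the transcribed strand. Capitals mark a C followed by at least 4 bases that are each C or T, where that run begins within 10 bases of the start base.
Gas5, downstream start (chr1:161035126-161035205, plus strand): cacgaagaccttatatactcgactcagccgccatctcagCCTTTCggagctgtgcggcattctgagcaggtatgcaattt
Gas5, upstream start (chr1:161034561-161034640, plus strand): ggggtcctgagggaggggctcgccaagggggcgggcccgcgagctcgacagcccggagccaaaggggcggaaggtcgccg
Snhg1 (chr19:8723447-8723526, plus strand): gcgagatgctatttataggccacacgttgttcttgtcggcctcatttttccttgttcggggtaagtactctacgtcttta
Snhg5 (chr9:88522858-88522937, minus strand): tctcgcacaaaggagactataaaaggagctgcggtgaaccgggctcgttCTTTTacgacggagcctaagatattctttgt
Snhg8 (chr3:123508297-123508376, minus strand): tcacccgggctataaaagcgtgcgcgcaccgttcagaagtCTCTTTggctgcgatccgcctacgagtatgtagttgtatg
Snhg12 (chr4:132308638-132308717, plus strand): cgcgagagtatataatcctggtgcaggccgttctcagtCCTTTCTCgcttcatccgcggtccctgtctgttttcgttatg
Meg3, upstream start (chr12:109540956-109541035, plus strand): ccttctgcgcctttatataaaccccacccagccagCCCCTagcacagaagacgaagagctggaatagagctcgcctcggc
Malat1 (chr19:5802633-5802712, minus strand): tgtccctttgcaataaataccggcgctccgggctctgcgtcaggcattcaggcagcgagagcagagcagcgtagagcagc

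Such a run was found at 4 of the 6 start regions of the host genes, against 30.7% of all 32851 RefSeq start regions and 54.4% of the 68 start regions of cytosolic ribosomal protein genes. At the start base itself, the run stood in the downstream Gas5 start and in Snhg8, 2 of the 6 host regions, against 2.51% of all start regions and 20.6% of those of ribosomal protein genes. Snhg1 begins with ctcatttttcc, in which an A breaks the run. The letters TATA, searched on the transcribed strand from 40 to 16 bases before the start after the sequences had been seen, were in 5 of the 6 host regions and in the upstream Meg3 region, and in 5.91% of all start regions. Malat1, the upstream Gas5 start and the downstream Meg3 start (not printed) held neither. These are matches of letters and say nothing on which start was used in the aorta.

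The libraries held 11382573 to 19906694 reads assigned to genes. Ikbkb, the deleted gene, ranged from 594 to 791 normalized counts in saline-treated IKKβ+/+ mice and from 439 to 586 in saline-treated IKKβ-/- mice (log2 fold change -0.39 ± 0.12 SE, adjusted p = 0.0988), and from 685 to 779 against 430 to 672 under Ang II (-0.42 ± 0.12, adjusted p = 0.173). The smooth muscle markers Acta2 and Myh11 averaged 198500 and 104900 normalized counts over the 19 mice, and all 5 endothelial, 5 fibroblast and 5 macrophage markers were also measured. The samples were therefore whole aortic wall, in which more cells of a type and more RNA per cell cannot be told apart. Mouse X2406, a saline-treated IKKβ-/- mouse, stood apart. It had the smallest library, and 36.7% of its counts came from 8 mitochondrially encoded mRNAs, a list added after the values were seen. Mouse X2385 (IKKβ-/-, Ang II) came next with 35.1%, and the other 17 mice had 5.59% to 24.6%. Without X2406, limma called 24 genes between saline-treated genotypes and no gene of any list described below.

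Levels were first compared per length, as normalized counts per kilobase of annotated exon, in saline-treated IKKβ+/+ aortas. Malat1 was the highest at 1803 ± 1127 (mean ± SD, n = 5 here and in the next sentences). Gas5 (254 ± 16.6) was the highest of the host genes, followed by Snhg8 (179 ± 22.5) and then Neat1 (128 ± 41.9). Snhg5 (91.7 ± 9.70) and Snhg6 (81.1 ± 17.7) differed by less than the SD of Snhg6. Snhg1 (57.4 ± 2.98) and Meg3 (52.0 ± 18.1), and again Meg3 and Snhg12 (41.4 ± 5.85), differed by less than the SD of Meg3. Exon lengths came from Gencode M21, whose Snhg5 locus is shorter than the one in the table, so the level of Snhg5 per length is the least certain.

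The lncRNAs differed widely in how much they varied between mice. The highest Malat1 value was 88.5 times the lowest, against 7.72 times for Meg3, 3.73 times for Neat1 and 1.84 (Gas5) to 2.91 times (Snhg6) for the 6 host genes. Within groups, the SD of Malat1 was 1.26 on the log2 scale, at the 96.4th percentile of the 14845 genes, and that of Meg3 was 0.79, at the 86.5th percentile. Gas5 (0.26) and Snhg8 (0.25) were below the median SD of all genes (0.30), while Neat1, Snhg1, Snhg5, Snhg6 and Snhg12 lay between 0.36 and 0.45.

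**Figure D1:**
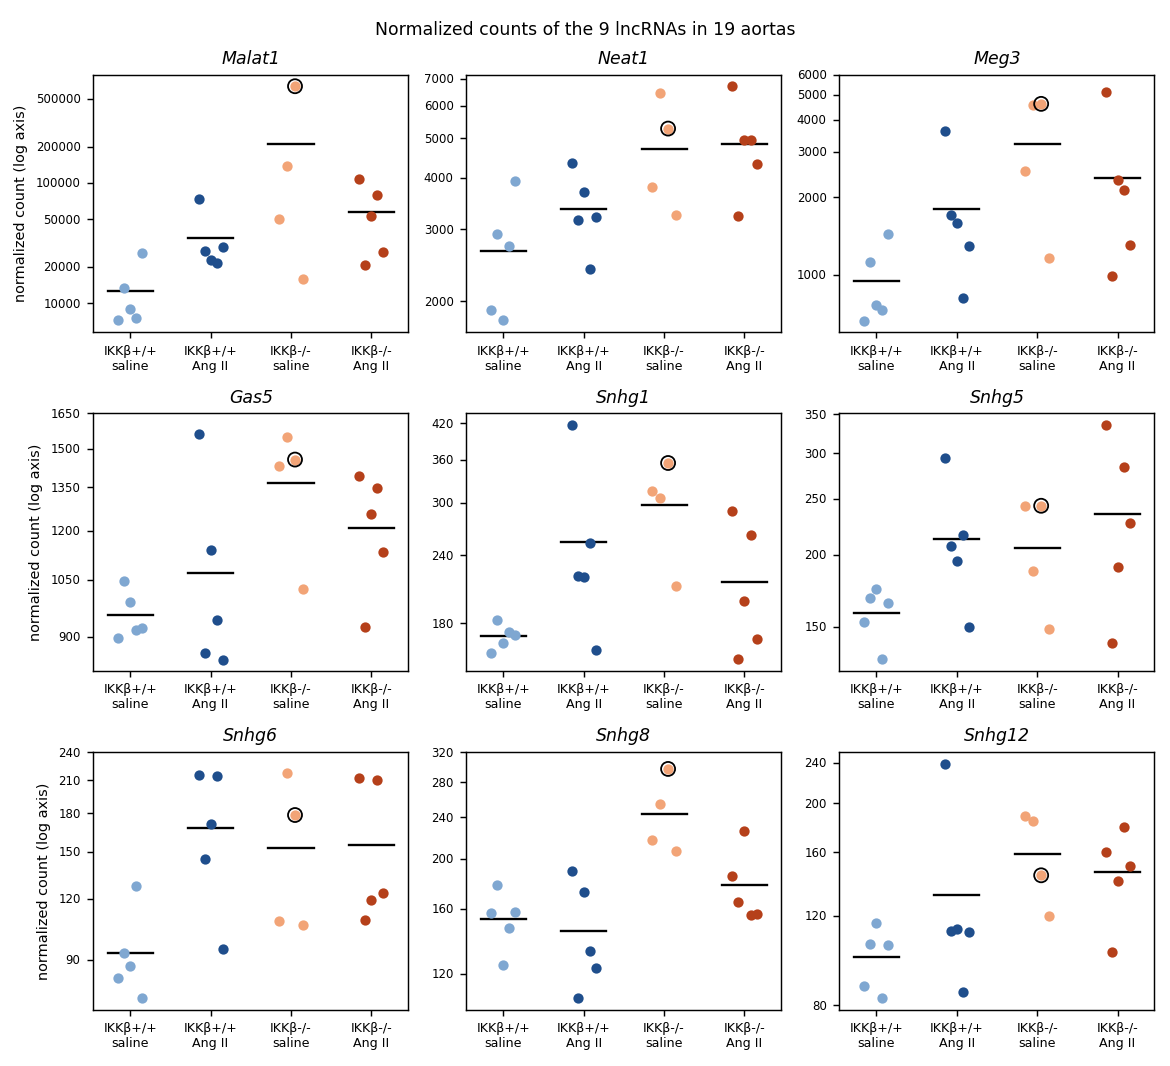
Normalized count (log axis, a separate scale for each gene) of the 9 lncRNAs by group, with 1 point per mouse and a bar at the group mean. The circled point is mouse X2406. Malat1 runs from 7203 to 637461, and saline-treated IKKβ+/+ mice have the lowest mean for all lncRNAs except Snhg8.

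Malat1 was lowest in saline-treated IKKβ+/+ aortas, at 7203, 7504, 8942, 13331 and 25965 normalized counts. With Ang II, IKKβ+/+ aortas held 21620.4, 22910.0, 27272, 29174 and 73602, and the value of 73602 belonged to mouse X2350. In saline-treated IKKβ-/- aortas Malat1 was 15969, 50122, 139051 and 637461, and in Ang II-treated IKKβ-/- aortas 20717, 26419, 52769, 78835 and 107599. The 4 groups overlapped in every comparison: the highest saline-treated IKKβ+/+ mouse lay above the lowest mouse of each other group, and 3 of the 4 saline-treated IKKβ-/- mice lay above all 5 saline-treated IKKβ+/+ mice. Malat1 took 3.11% of all reads in X2406 (353836 reads, exact 95% binomial interval 3.10% to 3.12%) and 0.0544% in X2370, the lowest mouse (0.0534% to 0.0554%), intervals that cover counting error only.

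The fitted Malat1 difference between saline-treated genotypes was 3.05 ± 0.74 (log2 fold change ± SE, IKKβ-/- minus IKKβ+/+), 8.28-fold. Without X2406 it was 2.12, and the group mean fell from 210651 to 68380 ± 63540 (SD, n = 3). With Ang II the genotypes differed by 0.62 ± 0.70, less than the SE. Ang II minus saline came to 1.49 ± 0.70 in IKKβ+/+ mice (1.18 without X2350) and to -0.95 ± 0.74 in IKKβ-/- mice (-0.01 without X2406). The fall in the IKKβ-/- mean thus rested on X2406.

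Malat1 has no poly(A) tail of the usual kind, ending in a folded structure after an A-rich stretch of the gene, so its yield after poly(A) selection can differ from that of an mRNA. Reads assigned to Gm37376, which the annotation places on the opposite strand within Malat1, followed Malat1 across the 19 mice (Pearson r of log2 values 0.99) and amounted to 0.246% to 0.564% of it. The libraries were stranded, but the strand setting used for counting is not given in the sources used here, so the value of Gm37376 cannot be separated from Malat1 reads.

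Neat1 moved over a narrower range. It was 1796, 1900.0, 2734, 2925 and 3935 in saline-treated and 2400.0, 3151, 3214, 3692 and 4360.3 in Ang II-treated IKKβ+/+ aortas. In IKKβ-/- aortas it was 3242, 3808, 5282 and 6458 with saline and 3238, 4323, 4939, 4950.5 and 6704 with Ang II. All groups overlapped, and the 2 lowest saline-treated IKKβ+/+ mice were the lowest of the 19. The genotypes differed by 0.83 ± 0.24 with saline (0.66 to 0.99 as each mouse was left out in turn, lowest without X2403) and by 0.51 ± 0.23 with Ang II. Ang II minus saline was 0.37 ± 0.23 in IKKβ+/+ and 0.05 ± 0.24 in IKKβ-/- mice.

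Meg3 varied most after Malat1. Its values were 662, 729, 760.4, 1119 and 1431 in saline-treated IKKβ+/+ mice and 811, 1290.2, 1583, 1711 and 3609.5 in Ang II-treated ones, and X2350 was again the highest. In IKKβ-/- mice they were 1156, 2535, 4559.5 and 4614 with saline and 983, 1302, 2139, 2326 and 5113 with Ang II. X2406 and X2403 were almost equal here, so the high Malat1 of X2406 was not matched by Meg3. The saline-treated genotypes overlapped and differed by 1.64 ± 0.46, or 3.11-fold, with 1.40 to 2.06 as each mouse was left out. With Ang II they differed by 0.33 ± 0.44. Ang II minus saline was 0.82 ± 0.44 in IKKβ+/+ (0.53 without X2350 to 1.07 without X2358) and -0.48 ± 0.46 in IKKβ-/- mice.

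Of the other genes of the Dlk1-Dio3 locus, Rian and Mirg, maternally expressed lncRNAs downstream of Meg3, were tested and neither was called by limma in any comparison. Mirg differed by 1.14 ± 0.55 between saline-treated genotypes (adjusted p = 0.262) and Rian by 0.15 ± 0.23 (adjusted p = 0.757). At an unadjusted p under 0.05 the limma count over both genes was 0 in each of the 5 comparisons. edgeR called none of them, and DESeq2 called Mirg in IKKβ+/+ mice with Ang II.

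Gas5, the most abundant host gene, stayed within a narrow band of 896 to 1046 normalized counts in saline-treated IKKβ+/+ mice. It ranged over 846 to 1558 in Ang II-treated IKKβ+/+ mice, 1025 to 1549 in saline-treated IKKβ-/- mice and 925 to 1391 in Ang II-treated IKKβ-/- mice. The genotypes differed by 0.50 ± 0.16 with saline, and 3 of 4 IKKβ-/- mice were above all IKKβ+/+ mice. They differed by 0.20 ± 0.15 with Ang II, and Ang II minus saline was 0.13 ± 0.15 in IKKβ+/+ mice, a value that turned to -0.02 without X2350, and -0.17 ± 0.16 in IKKβ-/- mice. Zbtb37, a protein-coding gene on the opposite strand over Gas5, held 12.4% to 40% of the Gas5 count with no shared pattern (Pearson r of log2 values -0.21, n = 19).

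Snhg1, the host of a cluster of box C/D snoRNAs, was the most even of the 9 in saline-treated IKKβ+/+ mice, at 159, 166, 171, 174 and 183. Saline-treated IKKβ-/- mice held 210.4, 306, 316 and 355, so the saline groups did not overlap. Ang II-treated IKKβ+/+ mice ran from 161 to X2350 at 417, the highest of all 19 (161, 219, 219.9, 253 and 417). Ang II-treated IKKβ-/- mice held 155, 168, 198, 262 and 290.2. The differences were 0.77 ± 0.23 between genotypes with saline (0.68 without X2406) and -0.21 ± 0.21 with Ang II. Ang II minus saline was 0.50 ± 0.21 in IKKβ+/+ mice (0.30 without X2350 to 0.65 without X2359) and -0.48 ± 0.23 in IKKβ-/- mice.

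Snhg8, host of Snora24, and Snhg12, host of several box H/ACA snoRNAs, also did not overlap between the saline groups. Snhg8 was 125, 147, 157, 158 and 178 in saline-treated IKKβ+/+ and 207, 217, 255 and 297 in saline-treated IKKβ-/- mice, a difference of 0.66 ± 0.17 (0.57 without X2406). Under Ang II it was 108, 123, 133, 172 and 189.6 in IKKβ+/+ and 156, 157, 165, 185 and 226 in IKKβ-/- mice. Snhg8 was the 1 of the 9 whose mean was lower with Ang II in IKKβ+/+ mice (-0.10 ± 0.16), and in IKKβ-/- mice Ang II minus saline was -0.46 ± 0.17. Snhg12 was 82.6, 87.2, 105, 106 and 116 against 119.7, 144, 184 and 188 with saline, a difference of 0.66 ± 0.24. Under Ang II it was 85.0, 111, 112, 113 and 239 in IKKβ+/+ and 102, 141, 150.4, 159.9 and 179.8 in IKKβ-/- mice, and X2350 stood alone at 239. For Snhg12, Ang II minus saline was 0.32 ± 0.23 in IKKβ+/+ (0.09 without X2350 to 0.46 without X2358) and -0.12 ± 0.24 in IKKβ-/- mice.

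Snhg5, host of Snord50a and Snord50b, and Snhg6, host of Snord87, had their lowest group mean in saline-treated IKKβ+/+ mice and close means in the other groups. Snhg5 was 159 ± 16.8 (SD, n = 5) there, against 213 ± 52.4 (SD, n = 5) in Ang II-treated IKKβ+/+ mice, 206 ± 46.1 (SD, n = 4) in saline-treated and 236 ± 76.7 (SD, n = 5) in Ang II-treated IKKβ-/- mice. Snhg6 was 74.9, 82.5, 87.2, 92.9 and 127 in saline-treated and 94.4, 145, 171, 214 and 215 in Ang II-treated IKKβ+/+ mice. In the IKKβ-/- groups Snhg6 was 153 ± 55.1 (SD, n = 4) with saline and 155 ± 51.9 (SD, n = 5) with Ang II. Ang II minus saline in IKKβ+/+ mice was 0.40 ± 0.21 for Snhg5 and 0.81 ± 0.26 for Snhg6, and in IKKβ-/- mice 0.16 ± 0.22 and 0.03 ± 0.28. As each mouse was left out, the IKKβ+/+ values were lowest without X2350, at 0.27 for Snhg5 and 0.71 for Snhg6. The saline genotypes differed by 0.35 ± 0.22 for Snhg5 and by 0.66 ± 0.28 for Snhg6.

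**Figure D2:**
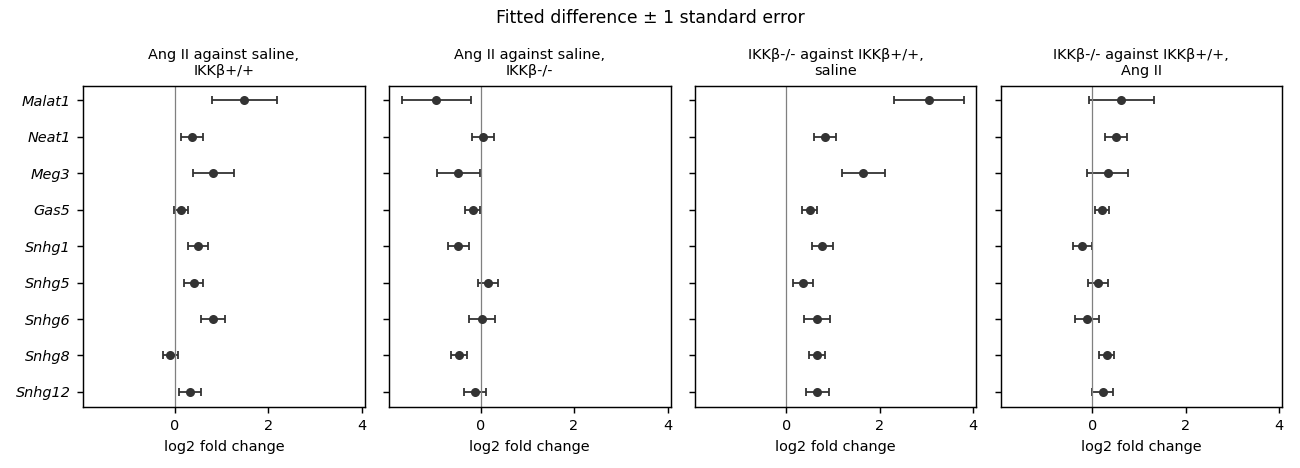
Fitted log2 fold change of each lncRNA in the 4 comparisons, with a bar of 1 standard error on each side. All 9 points are right of 0 between saline-treated genotypes (0.35 to 3.05), and those for Ang II in IKKβ-/- mice lie between -0.95 and 0.16.

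Counted over the 9 lncRNAs, 5 passed an adjusted p of 0.1 and a fold change of 1.2 between saline-treated genotypes, all higher in IKKβ-/- (Malat1, Neat1, Meg3, Snhg1 and Snhg8), where 5.47% of the 14845 genes passed. The groups did not overlap for 3 (Snhg1, Snhg8 and Snhg12), against 8.76% of all genes. Ang II in IKKβ+/+ mice gave 1 call, Snhg6, against 8.66% of genes, and 0 lncRNAs without overlap, against 8.42%. These counts belong to the measurements on which the lncRNAs were chosen. The median log2 fold change of the 9 was 0.66 between saline-treated genotypes and 0.40 for Ang II in IKKβ+/+ mice, and that of all genes was -0.02 and 0.01. 

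Calls were fewer in the other comparisons. For Ang II in IKKβ-/- mice limma called 0 (5.29% of all genes), edgeR 0 (722 of all genes) and DESeq2 0 (1164 of all genes). At an unadjusted p under 0.05 there were 2, against 2636 of all 14845 genes. The median was -0.17, and 0 were without overlap (5.29% of all genes). Between Ang II-treated genotypes limma called 0 (0.128% of all genes), edgeR 0 (16 of all genes) and DESeq2 0 (521 of all genes). At an unadjusted p under 0.05 there was 1, against 2118 of all 14845 genes. The median was 0.22, and 0 were without overlap (1.54% of all genes). The difference of the Ang II effect between genotypes was below 0 for all 9, from -2.43 ± 1.02 for Malat1 to -0.24 ± 0.31 for Snhg5, and both effects in it rest on the same choice of genes. limma called 0 of the 9 there (0% of all genes), with 2 at an unadjusted p under 0.05, 0 by edgeR and 1 by DESeq2 (Snhg1). Over all genes the count for this difference was 0 by limma (1654 at an unadjusted p under 0.05), 3 by edgeR and 279 by DESeq2.

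The 5 calls between saline-treated genotypes depended on single mice. Without X2406, 0 of the 9 and 24 genes in all passed, compared with 812 in all 19 mice. The fitted differences of the 9 were then 0.26 for Snhg5 to 2.12 for Malat1, with 0.46 for Gas5, 0.57 for Snhg6 and 0.70 for Snhg12. The count was also 0 without X2370, X2373 or X2403 and rose to 7 without X2409, the saline-treated IKKβ-/- mouse in which all 9 lncRNAs were the lowest of their group. Each of these fits left 3 or 4 mice in the smaller group.

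**Figure D3:**
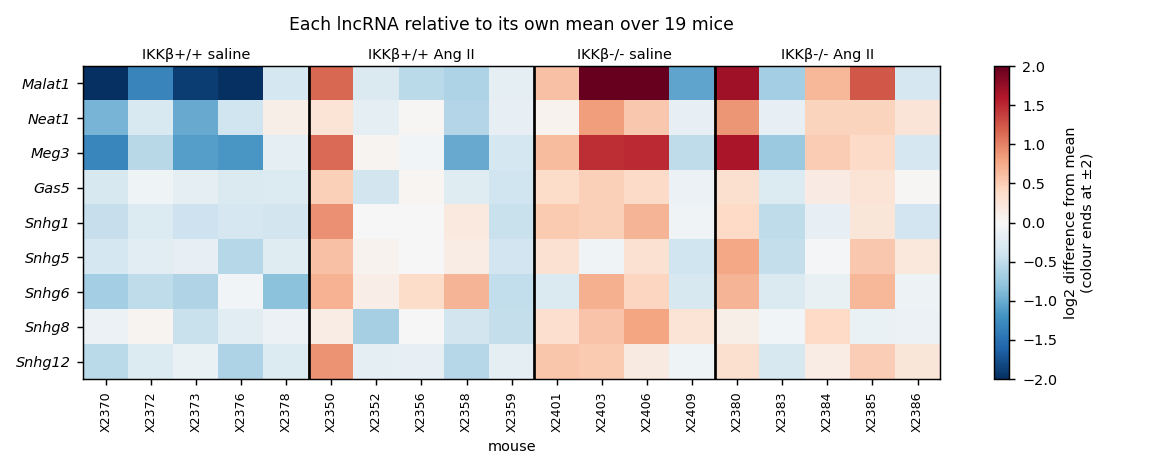
Each lncRNA (row) in each mouse (column) as the log2 difference from that lncRNA's mean over the 19 mice, with black lines between the groups and colours ending at ±2. X2350, X2403, X2406 and X2380 are red in nearly every row, while saline-treated IKKβ+/+ mice and X2383 are mostly blue.

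Across the 19 mice the 9 lncRNAs went up and down together. The 15 pairs of host genes had Pearson correlations of log2 values from 0.25 (Snhg5 with Snhg8) to 0.89 (Gas5 with Snhg12), with a median of 0.73. Malat1 with Neat1 gave 0.83, Malat1 with Meg3 0.91 and Neat1 with Meg3 0.90. The 12 pairs of Malat1 or Neat1 with a host gene gave 0.58 to 0.78, and the 6 pairs of Meg3 with a host gene 0.62 to 0.85. After each group's mean was removed, the pairs of host genes gave 0.26 to 0.88 and Malat1 with Meg3 gave 0.85, so the shared movement was also present between mice of 1 group. Each point is 1 library, with its depth and composition shared by all 9 values, and no p is given.

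The mean of the 6 host genes showed this by mouse, as a log2 difference from the mean of all 19. The 5 saline-treated IKKβ+/+ mice lay between -0.41 and -0.22. X2350 was the highest at 0.62, and its 4 Ang II-treated IKKβ+/+ group mates lay between -0.40 and 0.04. In saline-treated IKKβ-/- mice, X2401, X2403 and X2406 were at 0.30, 0.45 and 0.46 and X2409 at -0.12. In Ang II-treated IKKβ-/- mice the values ran from -0.32 (X2383) to 0.43 (X2380). For the mean of Malat1 and Neat1, X2370 was again the lowest, at -1.57, and X2406 was the highest, at 2.40.

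**Figure D4:**
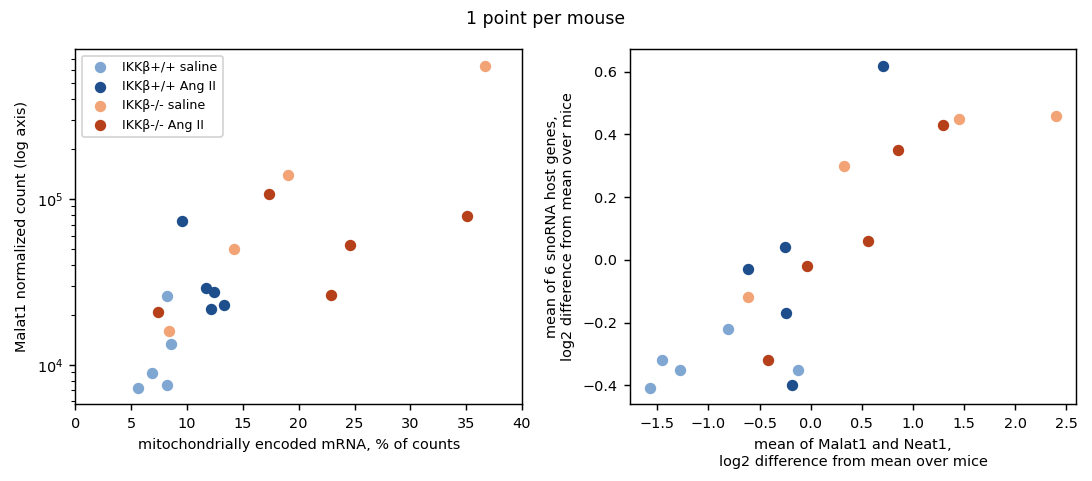
Left, Malat1 normalized count (log axis) against the percentage of counts from mitochondrially encoded mRNAs; right, the mean of the 6 host genes against the mean of Malat1 and Neat1, both as log2 difference from the mean over 19 mice. Each point is 1 mouse, coloured by group. X2406 is at 36.7% and 637461 on the left, and the host genes span -0.41 to 0.62 on the right.

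Mitochondrially encoded mRNA moved with the lncRNAs. It made up 5.59% to 8.56% of counts in saline-treated and 9.51% to 13.3% in Ang II-treated IKKβ+/+ mice. In IKKβ-/- mice it was 8.39% to 36.7% with saline and 7.39% to 35.1% with Ang II. Over the 19 mice its mean log2 level correlated with Malat1 at 0.79, with Neat1 at 0.71, with Meg3 at 0.65 and with the host genes at 0.45 (Snhg8) to 0.64 (Snhg5). X2350, the highest Ang II-treated IKKβ+/+ mouse for each of the 9 lncRNAs, had the lowest mitochondrial share of its group (9.51%). X2385 had a share near that of X2406 with a Malat1 value of 78835. RNA integrity values were not used here, and the part of the mitochondrial share in these results was not tested.

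Cell type markers were read beside the lncRNAs. Between saline-treated genotypes 2 of the 5 macrophage markers, Adgre1 (-1.02 ± 0.30, adjusted p = 0.0779) and Cd68 (-0.93 ± 0.26, adjusted p = 0.0674), were lower in IKKβ-/- mice, and the summed macrophage level was 2353 to 3248 normalized counts against 3701 to 5275 in IKKβ+/+ mice. Neither was called without X2406, when the list's median went from -0.91 to -0.77. None of the 5 smooth muscle, 5 endothelial or 5 fibroblast markers was called there by limma (unadjusted p under 0.05 for 2, 3 and 2 of them). All 5 smooth muscle markers were above 0, with a median of 0.24, and edgeR called 1 and DESeq2 called 2 of them higher. All 5 endothelial markers were below 0, with a median of -0.80, and DESeq2 called 2 of them. The 4 white fat markers were also below 0, with a median of -2.33 and an unadjusted p under 0.05 for each, and DESeq2 called all 4 while limma and edgeR called 0. Their sum was 57.9 to 392 in IKKβ-/- and 71.5 to 3176 in IKKβ+/+ saline-treated mice. Without X2406 the endothelial and white fat medians were -0.63 and -2.12. Summed smooth muscle markers were 417430 to 570147 in IKKβ-/- and 320545 to 428600 in IKKβ+/+ saline-treated mice. White fat markers rose with Ang II in IKKβ-/- mice for 4 of the 4 tested (3 without X2406), where their sum was 541 to 9222. Across mice the white fat markers correlated with the lncRNAs at -0.35 (Snhg8) to 0.12 (Neat1), and the macrophage markers at -0.66 (Snhg5) to -0.28 (Snhg8). With Ang II in IKKβ+/+ mice the smooth muscle markers Cnn1 (0.82 ± 0.20, adjusted p = 0.0303) and Tagln (0.66 ± 0.20, adjusted p = 0.0653) rose, and Tek of the endothelium (-1.08 ± 0.27, adjusted p = 0.0299) and Lum of fibroblasts (-1.27 ± 0.40, adjusted p = 0.0757) fell. Of the 5 endothelial markers 1 was above 0 there (median -0.62), and of the 5 fibroblast markers 0 (median -0.57). Ckm of striated muscle also rose (2.93 ± 0.41, adjusted p = 0.000988), with 3 of the 4 tested above 0. Without X2350 the smooth muscle and fibroblast calls were lost and 1 endothelial call was made. With Ang II in IKKβ-/- mice Kdr of the endothelium (1.79 ± 0.57, adjusted p = 0.099) and Sox10 of Schwann cells (1.74 ± 0.55, adjusted p = 0.0971) rose, with 1 of 5 and 5 of 5 markers above 0. Lymphocyte markers were near 0, with summed levels of 0 to 66.2 normalized counts. The part of these cell types in the results was not tested.

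Other snoRNA host lncRNAs were read to see how far the host genes stood for their class. Of 15 listed, 12 were tested. Snhg15 rose with Ang II in IKKβ+/+ mice (1.17 ± 0.35, adjusted p = 0.0604), where 8.66% of all genes were called. It was the only call of the 12 by limma in the 5 comparisons, lost without X2350. Between saline-treated genotypes their median was 0.41, with 9 of the 12 above 0. Snhg3 (0.89 ± 0.30, adjusted p = 0.111), Snhg18 (0.32 ± 0.12, adjusted p = 0.136) and Zfas1 (0.50 ± 0.22, adjusted p = 0.224) did not pass in limma, 3 of the 12 had an unadjusted p under 0.05, and edgeR called 1 (Snhg3) and DESeq2 2 (Snhg3 and Snhg18). Snhg4, Snhg10 and Snhg17 were at -0.12 ± 0.38, -0.47 ± 0.78 and -0.03 ± 0.26. The 6 others were between 0.23 (Dancr) and 0.45 (Snhg14 and Snhg16).

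With Ang II in IKKβ+/+ mice the median of the 12 was 0.17, and in IKKβ-/- mice it was 0.16. Without X2406 the latter was -0.01, and without X2350 the former was 0.09. Snhg14, the very long transcript of the Prader-Willi locus, was at -0.36 ± 0.29 in IKKβ+/+ mice and differed by 0.71 ± 0.29 between Ang II-treated genotypes (adjusted p = 0.281). Snhg20 differed by 0.86 ± 0.33 there (adjusted p = 0.264), Zfas1 by 0.45 ± 0.21 (adjusted p = 0.341) and Snhg18 by 0.25 ± 0.11 (adjusted p = 0.303). Epb41l4aos differed by 0.55 ± 0.34 and Snhg15 by -0.52 ± 0.35 (adjusted p = 0.505). Between Ang II-treated genotypes the median of the 12 was 0.23, with 8 above 0. There limma called 0 of them, and 4 had an unadjusted p under 0.05.

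Genes that carry snoRNAs in introns but encode proteins were also read between saline-treated genotypes. Of 31, 30 were above 0 and 8 were called, all higher in IKKβ-/-, with a median of 0.27. Without X2406 the median was 0.31 and 0 were called. They included Taf1d (0.96 ± 0.31, adjusted p = 0.0988), a subunit of the factor that starts transcription of ribosomal RNA genes, and the ribosomal protein Rpl12 (0.76 ± 0.23, adjusted p = 0.0844). With Ang II in IKKβ+/+ mice 3 were called, all higher: Eif4a1 (0.74 ± 0.19, adjusted p = 0.0351), the helicase that opens mRNA for the ribosome, Rps2 (0.48 ± 0.12, adjusted p = 0.0362) and Rpsa (0.43 ± 0.14, adjusted p = 0.0844), and 0 were called without X2350. Over all genes 8.66% were called for Ang II in IKKβ+/+ mice. None of the 31 was called by limma in IKKβ-/- mice with Ang II (3 at an unadjusted p under 0.05, 0 by edgeR, 1 by DESeq2).

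Among 79 cytosolic ribosomal protein genes, 28 were higher and 0 lower in saline-treated IKKβ-/- mice, with a median of 0.36 and 76 above 0. Without X2406 the median was 0.38 and 0 were called. With Ang II in IKKβ+/+ mice, where 8.66% of all genes were called, 8 rose and 0 fell, with a median of 0.24, and 1 rose without X2350. In IKKβ-/- mice with Ang II the median was -0.03 and limma called 0 (3 at an unadjusted p under 0.05, 0 by edgeR and 0 by DESeq2). Of the 17 proteins that assemble or modify with snoRNAs, limma called 1, Nhp2, which rose with Ang II in IKKβ+/+ mice (0.83 ± 0.17, adjusted p = 0.0129). There edgeR also called Nop58, and DESeq2 also called Nop58, Nop56 and Gar1. Between saline-treated genotypes edgeR called Dkc1 and DESeq2 called Dkc1 and Znhit3, and DESeq2 called Shq1 with Ang II in IKKβ-/- mice, all higher.

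For nonsense-mediated decay, the RNA levels of 14 factor genes were read, and decay itself was not measured. Upf3b (1.13 ± 0.35, adjusted p = 0.0887), Upf2 (0.61 ± 0.18, adjusted p = 0.0812) and Upf3a (0.42 ± 0.11, adjusted p = 0.0556) were higher in saline-treated IKKβ-/- mice, and the list's median was 0.07. Without X2406 the median was 0.03 and 0 were called. Smg5 rose with Ang II in IKKβ+/+ mice (0.39 ± 0.10, adjusted p = 0.0362), but not without X2350. Of 13 growth regulators, Myc rose with Ang II in IKKβ+/+ mice (1.62 ± 0.46, adjusted p = 0.0507), Eif4ebp1, a brake on translation, rose in both genotypes (0.41 ± 0.14, adjusted p = 0.0953, and 0.63 ± 0.15, adjusted p = 0.0265), and Eif4ebp2 was lower in saline-treated IKKβ-/- mice (-0.52 ± 0.15, adjusted p = 0.0778). The calls in IKKβ+/+ mice were lost without X2350, and that of Eif4ebp2 without X2406.

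Gas5 can bind the glucocorticoid receptor, so 8 genes of that receptor and its targets were listed. With Ang II in IKKβ+/+ mice 3 rose, Errfi1 (1.80 ± 0.36, adjusted p = 0.0102), Fkbp5 (1.05 ± 0.34, adjusted p = 0.0795) and Sgk1 (1.05 ± 0.28, adjusted p = 0.0426), and 1 fell, the receptor gene Nr3c1 itself (-0.50 ± 0.10, adjusted p = 0.0122), which was named after its value was seen. Without X2350, 1 gene rose and 1 fell. Klf9 (0.92 ± 0.18, adjusted p = 0.0367) and Per1 (1.56 ± 0.35, adjusted p = 0.0464) were higher in saline-treated IKKβ-/- than IKKβ+/+ mice (neither was called without X2406), and Per1 fell with Ang II in IKKβ-/- mice (-1.43 ± 0.35, adjusted p = 0.0308). Cdkn1a, the cell cycle inhibitor, was the 1 of 10 p53 targets called by limma or edgeR, and rose with Ang II in IKKβ+/+ mice (1.02 ± 0.24, adjusted p = 0.0204 in limma). DESeq2 also called Bax higher there, Cdkn1a lower in IKKβ-/- than IKKβ+/+ mice with Ang II, and Mdm2 below 0 for the difference of the Ang II effect.

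On the side of the nuclear bodies, 24 nuclear speckle and splicing proteins had a median of 0.37 between saline-treated genotypes, with 3 called higher and 1 lower in IKKβ-/-. Rbm25 (1.15 ± 0.33, adjusted p = 0.0723), Luc7l3 (1.1 ± 0.32, adjusted p = 0.0779) and Rbm39 (1.01 ± 0.29, adjusted p = 0.0735), all splicing regulators, were the higher 3, the helicase Ddx17 was lower (-0.41 ± 0.11, adjusted p = 0.0563), and 0 were called without X2406. With Ang II 0 were called in IKKβ+/+ mice (1 at an unadjusted p under 0.05, 0 by edgeR and 0 by DESeq2) and 1 rose in IKKβ-/- mice, Ddx17 (0.47 ± 0.11, adjusted p = 0.021). The mean of this list correlated with Meg3 at 0.95, with Malat1 at 0.93 and with Neat1 at 0.88 over the 19 mice. The 6 host genes followed it too, at 0.57 (Snhg6) to 0.86 (Gas5). The mean of the ribosomal protein list correlated with Malat1 at 0.74, Meg3 at 0.79 and Neat1 at 0.81, and with the host genes at 0.60 (Snhg8) to 0.84 (Gas5). Meg3, Malat1 and Neat1 each correlated more closely with the nuclear speckle and splicing list than any of the 6 host genes did. After each group's mean was removed they were at 0.87 (Neat1) to 0.95 (Meg3), against 0.55 (Snhg6) to 0.77 (Gas5) for the host genes. For the ribosomal protein list the ranges of the nuclear lncRNAs and the host genes overlapped.

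Of 18 paraspeckle proteins, the partners of Neat1, Fam98a (0.61 ± 0.12, adjusted p = 0.0078) and Dazap1 (0.38 ± 0.12, adjusted p = 0.0816) rose with Ang II in IKKβ+/+ mice (1 call without X2350) and Tardbp in IKKβ-/- mice (0.38 ± 0.09, adjusted p = 0.0221). Ewsr1 was higher in saline-treated IKKβ-/- than IKKβ+/+ mice (0.39 ± 0.11, adjusted p = 0.0633), but was not called without X2406. Among 8 other nuclear lncRNAs, Kcnq1ot1, the antisense transcript that silences its imprinted domain, was the only call by limma or edgeR (1.63 ± 0.43 between saline-treated genotypes, adjusted p = 0.0589 in limma), and limma did not call it without X2406. DESeq2 also called Pvt1, lower in IKKβ-/- than IKKβ+/+ mice with Ang II. Tug1, Ftx and Miat were at -0.27 ± 0.12, -0.06 ± 0.20 and -0.36 ± 0.78, Airn, Firre and Pvt1 at 0.25 ± 0.21, 0.33 ± 0.22 and 0.17 ± 0.28, and Jpx at 0.74 ± 0.33 (adjusted p = 0.229). The values of nuclear lncRNAs as a class were therefore not uniform.

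**Figure D5:**
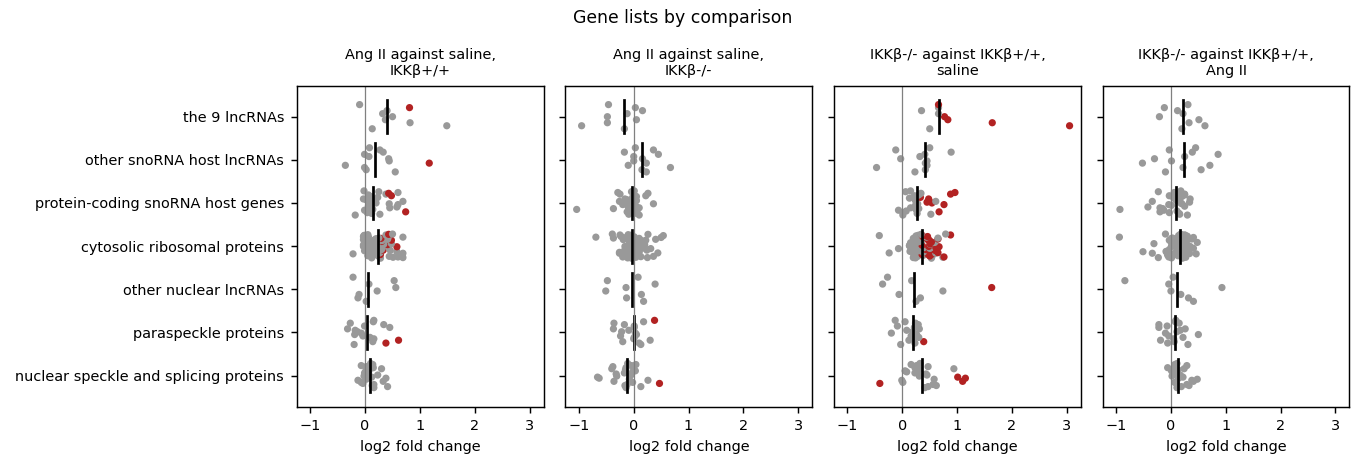
Fitted log2 fold change of each tested gene of 7 lists in the 4 comparisons, with 1 point per gene, a black bar at the list's median and red points for genes past an adjusted p of 0.1 and a fold change of 1.2. Between saline-treated genotypes the medians run from 0.20 (paraspeckle proteins) to 0.66 (the 9 lncRNAs), and in IKKβ-/- mice with Ang II from -0.17 to 0.16.

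The genes whose pattern was most like that of the lncRNAs were sought among all 14845 by Pearson correlation of log2 values over the 19 mice. The 5 genes closest to the mean of the 6 host genes included Taf1d (0.95), which itself carries snoRNAs, Selenow (0.92), the lncRNA B830012L14Rik (0.92) and Rpl26 (0.91). The mean of Malat1 and Neat1 was closest to Gm37376 (0.97), which overlaps Malat1, the pseudogene Gm14769 (0.96), Luc7l3 (0.96), Srsf11 (0.96), a splicing factor, and the lncRNA Mir99ahg (0.95). Meg3 was closest to Gm43359 (0.96) and Gm44694 (0.95), unconfirmed gene models in the annotation, and to Sfswap (0.95), Safb2 (0.95) and Gtf3c2 (0.95). Without X2406 and X2385 these correlations were 0.90 to 0.97.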

How the data were processed

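Poly(A)-selected stranded libraries (KAPA RNA HyperPrep) were sequenced single-end. Per the labels and the study's methods, reads were trimmed (Trimmomatic 0.35), aligned to GRCm38 with Gencode M25 and counted per gene (STAR 2.7.1a), and the read counts were normalized with DESeq2 1.30.1. RSEM gave TPM values, which are not used here. The deposited values are a signal, gene counts divided by a size factor for each mouse by the authors, called normalized counts here. Each column's values were whole multiples of 1 step within 0.02, so whole reads were recovered for 100% of values and gave the depth.

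The 9 lncRNAs and all gene lists were chosen with earlier results of these data known. Log2(normalized count + 1) was fitted with limma 3.58.1 in R 4.3.3, with 1 mean per group over 19 mice and a trended prior, for the 14845 of 20408 genes that reached 10 normalized counts in 4 or more mice. Calls needed a Benjamini-Hochberg adjusted p under 0.1 over all tested genes and a fold change above 1.2, the thresholds of the study's methods. Fold changes are on the log2(value + 1) scale, understate those of low genes and are given ± SE. Named genes were the 9, the tested genes of the lists of other host lncRNAs, other nuclear lncRNAs and the Dlk1-Dio3 locus, from each other list up to 3 called genes per comparison with the largest change and a group mean of at least 50, and the 5 genes most correlated with each of 3 profiles. Ikbkb was added as the deleted gene, and 1 gene that the rule names is not reported here. The smallest chi-square per gene between mice of 1 group was 20.5, so no library was a copy of another. Alternative settings included a pseudocount of 4, an unfiltered table, only the compared groups, TMM scaling, edgeR 4.0.16 and DESeq2 1.42.0 on the recovered reads, and leaving out each mouse. The fit was tested on simulated data.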

Additional observations from a re-analysis of the deposited data

Results flagged for a closer look

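Over 36 sets of values (9 lncRNAs in 4 groups), 2 had 1 mouse farther from the rest than Dixon's 95% critical ratio allows, and chance flags about 1 in 20 sets. Both were mouse X2350 among the 5 Ang II-treated IKKβ+/+ mice: Malat1 at 73602 normalized counts (gap over range 0.855, critical ratio 0.71) and Snhg12 at 239 normalized counts (0.818). X2350 had 9.51% mitochondrially encoded mRNA, the lowest of its group. Malat1 in X2406 was within the critical ratio for 4 mice.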

How the results depend on the processing

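For Ang II in IKKβ+/+ mice, where 1 lncRNA was called, the count was 0 with no filter on low values, 2 with only the compared groups (Malat1 and Snhg6) and 2 by DESeq2 (Snhg1 and Snhg6). It was 0 to 2 as each mouse was left out: 0 without X2350, X2358, X2370, X2372, X2373 or X2378, and 2 without X2359. The 1 call among the 12 other host lncRNAs was lost (0) without X2350, X2358, X2373, X2376 or X2378, so that leaving out 1 mouse gave 0 to 1. Between saline-treated genotypes, the 5 calls became 0 to 7 as each mouse was left out (0 without X2370, X2373, X2403 or X2406, 1 without X2376, 2 without X2401, 3 without X2372) and 0 without X2406 and X2385, an alternative chosen after seeing the data. The other host lncRNAs, 0 by limma there, gave 2 with only the compared groups, 1 by edgeR, 2 by DESeq2, and 0 to 3 as each mouse was left out (1 without X2380 or X2383, 3 without X2409). DESeq2 called 1 of the 9 for the difference of the Ang II effect. The fitted changes of the 9 kept their sign in all 234 alternative values between saline-treated genotypes and in all 225 for the difference of the Ang II effect, and changed sign in 1 of 234 for Ang II in IKKβ+/+ mice, 8 of 234 in IKKβ-/- mice and 1 of 234 between Ang II-treated genotypes. All moved by less than the within-group SD. Genes called in all changed by over 1.5 times with only the compared groups for Ang II in IKKβ-/- mice (785 to 295), between saline-treated genotypes (812 to 1420) and between Ang II-treated genotypes (19 to 1), by DESeq2 between saline-treated (1437) and Ang II-treated (521) genotypes, and without X2406 and X2385 for Ang II in IKKβ-/- mice (295), between saline-treated (19) and Ang II-treated genotypes (6). As each mouse was left out, they were 431 (without X2350) to 1918 (X2356) for Ang II in IKKβ+/+ mice, with 451 without X2358, 843 without X2373, 699 without X2376 and 627 without X2378, and 433 (X2406) to 1082 (X2383) in IKKβ-/- mice, with 443 without X2401, 501 without X2384 and 521 without X2385. Between saline-treated genotypes they were 24 (X2406) to 1727 (X2409), with 66 to 425 without X2370, X2372, X2373, X2376, X2401 or X2403. Between Ang II-treated genotypes they were 0 to 553 (X2356), and for the difference of the Ang II effect 0 to 79 (X2356). No paired analysis was possible because mouse numbers were unique. The lowest read count of a lncRNA in a mouse was 80 (Snhg12).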
